A study of Mus musculus with 7 samples.

Results

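Cells repair DNA crosslinks and double-strand breaks with a set of partly shared proteins, and 32 genes for these proteins were described in long-term haematopoietic stem cells (LT-HSC) of mice with and without endomucin. The members were listed by symbol: 7 Fanconi core complex genes, the 2 genes of the ID2 complex, 7 homologous recombination genes, 2 genes that resolve joined DNA, the 3 genes of the MRN complex, 4 checkpoint kinases, 2 genes of break-marked chromatin, 4 end-joining genes and Parp1. All 32 symbols were found, each once, among 54347 gene identifiers, and all 32 passed the filter on low counts, which left 15372 genes for testing. Endomucin, encoded by Emcn, is a sialomucin of the cell surface that is found on endothelium and on stem cells of the marrow.

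LT-HSC were sorted from Emcn-/- mice (KO, mice ko_306, ko_314 and ko_320) and from their Emcn+/+ littermates (WT, mice wt_284, wt_290, wt_310 and wt_312), with 1 library per mouse. All 7 mice were female, and both genotypes carry the same strain label, C57BL/6N-EMCN em1(IMPC)Wtsi /WtsiH, with no transgene, Cre driver or treatment named in the labels. Each library came from between 3000 and 5000 cells of lineage-depleted marrow taken from the bones of the hind legs. The label of the cell population is LT-HSC, and no age is stated for the mice.

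The Fanconi pathway removes crosslinks that block a replication fork: FANCM recognises the stalled fork, the core complex acts as an E3 ubiquitin ligase, and its ubiquitylation of FANCD2 and FANCI allows incision of the crosslink, after which homologous recombination mends the break. Breaks outside replication are joined mostly by the Ku and DNA-PKcs end-joining machinery, while ATM and ATR, the apical damage kinases, signal to CHK2 and CHK1. Loss of Fanconi genes causes bone marrow failure in people and impairs stem cell function in mice. Quiescent stem cells rely more on end joining, since homologous recombination is used mainly in S and G2 phase.

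The KO libraries held 6648881 to 11101774 estimated counts and the WT libraries 6444134 to 10322741. Emcn had 1, 0 and 0 counts in KO mice ko_306, ko_314 and ko_320, against 130 to 327 counts in WT mice, a mean of 0.0287 ± 0.0497 CPM (counts relative to the library total, scaled by TMM factors) in KO and 27.1 ± 8.001 CPM in WT (SD, n = 3 and 4; adjusted p = 0.00011 by edgeR's quasi-likelihood test). It was the single gene of 15372 that passed an adjusted p of 0.05, which is 0.00651% of the genes tested. The 15 stem cell markers were present in every library, at a summed 2929 to 3070 CPM in KO and 1927 to 3175 CPM in WT, lowest in wt_284.

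Markers of other cells were present at uneven levels. All 20 myeloid (median log2 fold change -4.00), 17 erythroid (-2.49), 4 tested mast cell and basophil (-3.07) and 7 tested lymphoid genes (-0.74) were below 0. None was called by edgeR, with 5 myeloid and 3 erythroid genes at an unadjusted p under 0.05. DESeq2 called 1 myeloid gene and gave such a p to 13 myeloid and 11 erythroid genes, and limma-voom called none and gave it to 6 and 8. Over all 15372 genes tested, such a p was given to 503 by edgeR, 679 by DESeq2 and 469 by limma-voom, and DESeq2 called 10. The 20 myeloid genes summed to 235 to 767 CPM in KO and 286 to 16249 CPM in WT, with the top value in wt_284, and 17 erythroid genes to 728 to 937 CPM in KO and 698 to 5510 CPM in WT. Between 0 and 5 of the myeloid genes were at 0 counts in a KO library, against 0 to 1 in a WT library. The 17 lymphoid genes summed to 68.7 to 71.6 CPM in KO and 78.8 to 303 CPM in WT, and the 9 mast cell and basophil genes to 0 to 8.09 CPM in KO and 8.86 to 91.3 CPM in WT, with Mcpt4, Tpsb2 and Cma1 at 0 in every library. Megakaryocyte markers (7 genes) gave 223 to 302 CPM in KO and 170 to 328 CPM in WT, endothelial markers (8 genes) 243 to 273 CPM in KO and 206 to 286 CPM in WT, and mesenchymal markers (7 genes) 33.8 to 41.6 CPM in KO and 24.9 to 41.3 CPM in WT. The part of these other cells in the values below was not tested. In bulk RNA of this kind, fewer cells that express a gene and less of its RNA per cell cannot be told apart.

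Promoter sequence was looked at first, because repair genes are commonly described as targets of E2F factors and of the CCAAT-binding factor NF-Y. RefSeq windows of the GRCm38.p6 build were matched by symbol for 26 of the 32 members. Fancd2, Xrcc2, Rad50, Nbn, H2ax and Prkdc are named only. The 250 bases before each start were searched on both strands. E2F letters (TTTCCCGC, TTTGGCGC, TTTCGCGC or TTTGCCGC) were found in 4 of 26 members (15.4%), namely Fancg, Brca2, Chek2 and Xrcc6, against 421 of 17492 protein-coding genes with such a window (2.41%). The CCAAT box was found in 14 of 26 members (53.8%) and in 36.3% of all coding windows. The CHR letters TTTGAA, common in mitotic promoters, were in 0 of 26 members against 15.0% of all windows. ETS letters (CCGGAAGT) were in Palb2 and Lig4, against 3.84% of all windows, and the NRF1 motif was in Lig4 alone of the 26 members, against 1.06% of all windows. Such matches describe letters in this window and not binding. The RefSeq start lay farthest from the GENCODE M21 start of the gene for Fancc (65533 bases), Xrcc6 (28534), Slx4 (2092) and Fancl (949). Of these, Xrcc6 is among the 4 members with E2F letters, and Fancc and Slx4 are among the 14 with a CCAAT box. For the promoters printed below the distance was 0 to 9 bases.

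Promoters are printed for the 2 members whose KO and WT values did not overlap (Fanca and Trp53bp1), and for Brca2 and Chek2, which hold E2F letters. Brca1 is printed too, since its unadjusted p by edgeR moved under 0.05 without 1 library. Each run is the 180 bases before the RefSeq start, 5′ to 3′ on the strand of the gene, with CCAAT boxes and E2F letters, read on either strand, in capitals. The windows are chr8:123318577-123318756 (minus strand) for Fanca, chr11:101551956-101552135 (minus) for Brca1, chr5:150522441-150522620 (plus) for Brca2, chr5:110839803-110839982 (plus) for Chek2 and chr2:121271408-121271587 (minus) for Trp53bp1.
Fanca: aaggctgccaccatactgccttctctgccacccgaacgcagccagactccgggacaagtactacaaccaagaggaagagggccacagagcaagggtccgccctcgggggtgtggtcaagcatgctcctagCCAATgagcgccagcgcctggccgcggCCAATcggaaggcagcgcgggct
Brca1: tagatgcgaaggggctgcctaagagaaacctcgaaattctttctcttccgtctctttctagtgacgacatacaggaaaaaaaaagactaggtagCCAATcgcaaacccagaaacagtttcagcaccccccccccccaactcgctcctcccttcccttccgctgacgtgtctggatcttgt
Brca2: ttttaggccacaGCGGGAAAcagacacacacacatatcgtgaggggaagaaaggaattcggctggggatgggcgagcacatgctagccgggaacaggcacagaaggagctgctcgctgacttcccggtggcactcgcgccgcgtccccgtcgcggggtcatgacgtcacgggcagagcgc
Chek2: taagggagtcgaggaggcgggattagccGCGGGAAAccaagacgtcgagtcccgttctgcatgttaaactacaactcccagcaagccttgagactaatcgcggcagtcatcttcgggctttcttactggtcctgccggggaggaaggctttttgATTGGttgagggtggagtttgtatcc
Trp53bp1: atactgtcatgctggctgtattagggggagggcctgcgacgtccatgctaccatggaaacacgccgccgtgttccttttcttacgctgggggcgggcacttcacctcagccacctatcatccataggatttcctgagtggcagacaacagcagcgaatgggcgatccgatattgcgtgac
Fanca holds a pair of CCAAT boxes close to its start, Brca1 has 1 box, and Chek2 has both kinds of letters. Brca2 has E2F letters and no CCAAT box within these bases, and the Trp53bp1 run has neither.

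Levels were first set against each other between genes, in TPM, which divides counts by gene length and scales each library to the same total, over all 7 libraries. H2ax, the histone variant phosphorylated around breaks, had the highest mean at 88.4 ± 39.0 TPM (SD, n = 7). It was followed by Parp1, a sensor of strand breaks, at 80.8 ± 12.7 TPM and by Rad50, the structural ATPase of the MRN complex, at 78.5 ± 13.4 TPM. H2ax lay above Parp1 in only 3 of the 7 libraries. Without wt_284 the means were 75.5 TPM for H2ax, 84.1 TPM for Parp1 and 82.7 TPM for Rad50. With the length of the longest transcript, Parp1 had 96.3 TPM and H2ax 77.4 TPM. The lowest mean was that of Lig4, the ligase of end joining, at 1.504 ± 0.420 TPM, after Rad51c, a recombination gene, at 1.75 TPM. Rad51c lay above Lig4 in only 3 of the 7 libraries. Without wt_312, where Rad51c had 5.26 TPM, the means were 1.16 TPM for Rad51c and 1.505 TPM for Lig4. The median of the 17077 protein-coding genes detected was 6.57 TPM, and 10 of the 32 members lay below it.

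By their medians, the MRN, end-joining, resolution and kinase genes stood above the Fanconi genes on the per-length scale, though Lig4, Atr and Chek1 were exceptions within the range of the Fanconi genes or below it. For Atr this held with the union of its exons as length (7.57 TPM). With the longest transcript Atr had 19.3 TPM, above Fancm at 10.9 TPM, the highest Fanconi gene. By that length Fancf (3.62 TPM) and not Fancc (6.95 TPM) was the lowest core gene. The 7 core complex genes spanned 3.02 TPM (Fancc, a subunit that sits with FANCE and FANCF) to 9.35 TPM (Fancm), with a median of 4.14 TPM, and the ID2 pair had 4.97 TPM (Fancd2) and 8.32 TPM (Fanci). MRN genes had a median of 34.5 TPM, end-joining genes 21.8 TPM, the resolution pair 14.3 TPM, kinases 13.3 TPM and homologous recombination genes 6.99 TPM. Brca2 (17.5 TPM), a mediator of strand exchange, and Brca1 (16.1 TPM), which promotes end resection, were the highest of the recombination genes. Neighbouring genes in this order rarely differed beyond their spread: the ranges over 7 libraries overlapped for 30 of 31 neighbouring pairs. The exception was Rad50 over Xrcc6 (36.2 TPM), which kept that order in all 7 libraries.

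The order of the 32 genes was alike from mouse to mouse. Spearman's rho across the 32 genes, a description without a test because the genes share libraries and lengths, was 0.958 to 0.966 between KO libraries, 0.886 to 0.977 between a KO and a WT library, and 0.874 to 0.977 between WT libraries. Dividing by the length of the longest transcript in place of the union of exons gave an order with a rho of 0.966 to the first. The plot of levels per length shows the whole order.

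**Figure D1:**
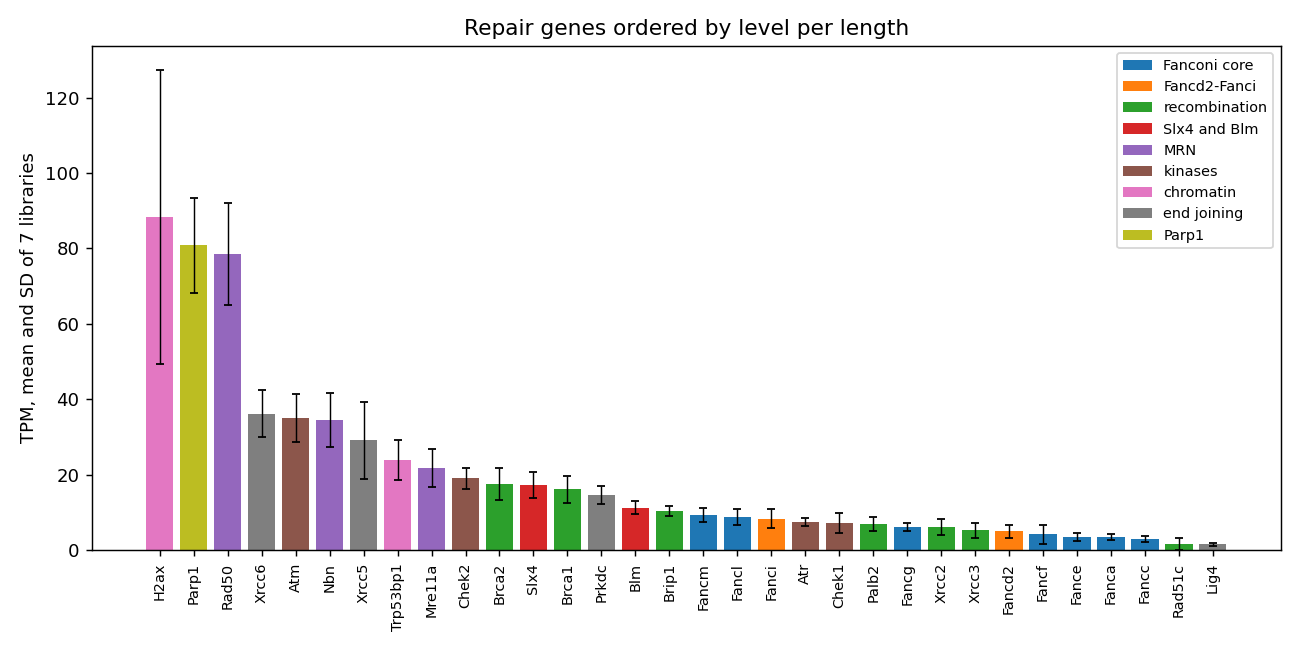
Level per gene length (TPM) of the 32 members, bars for the mean and lines for the SD over the 7 libraries, ordered by mean and coloured by role. H2ax, Parp1 and Rad50 stand highest at 78.5 to 88.4 TPM, and Rad51c and Lig4 lowest at 1.75 and 1.504 TPM.

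Between genotypes, no member passed the threshold. Of 32 tested, 0 had an adjusted p under 0.05 by edgeR, by DESeq2 or by limma-voom, against 0.00651% of all genes by edgeR. Log2 fold changes (KO minus WT, on CPM) were above 0 in 20 members and below 0 in 12, with a median of 0.05 against -0.02 over all 15372 genes. By edgeR an unadjusted p under 0.05 was reached by 2 members, Fanca (lower in KO) and Trp53bp1 (higher in KO), against 3.27% of all genes tested. DESeq2 gave such a p to the same 2 members and to 679 of all 15372 genes. With limma-voom it was reached by 3 members, Fanca, Trp53bp1 and Brca1, and by 469 genes. The KO and WT values did not overlap in 2 members, against 4.86% of all genes (2.43% with KO above WT and 2.43% with KO below WT). For 21 of the 32 members (65.6%) the 95% interval of the difference lay within a 2-fold change either way, as it did for 49.6% of all genes. The smallest adjusted p of any member was 0.992 by edgeR, 0.955 by DESeq2 and 0.981 by limma-voom.

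**Figure D2:**
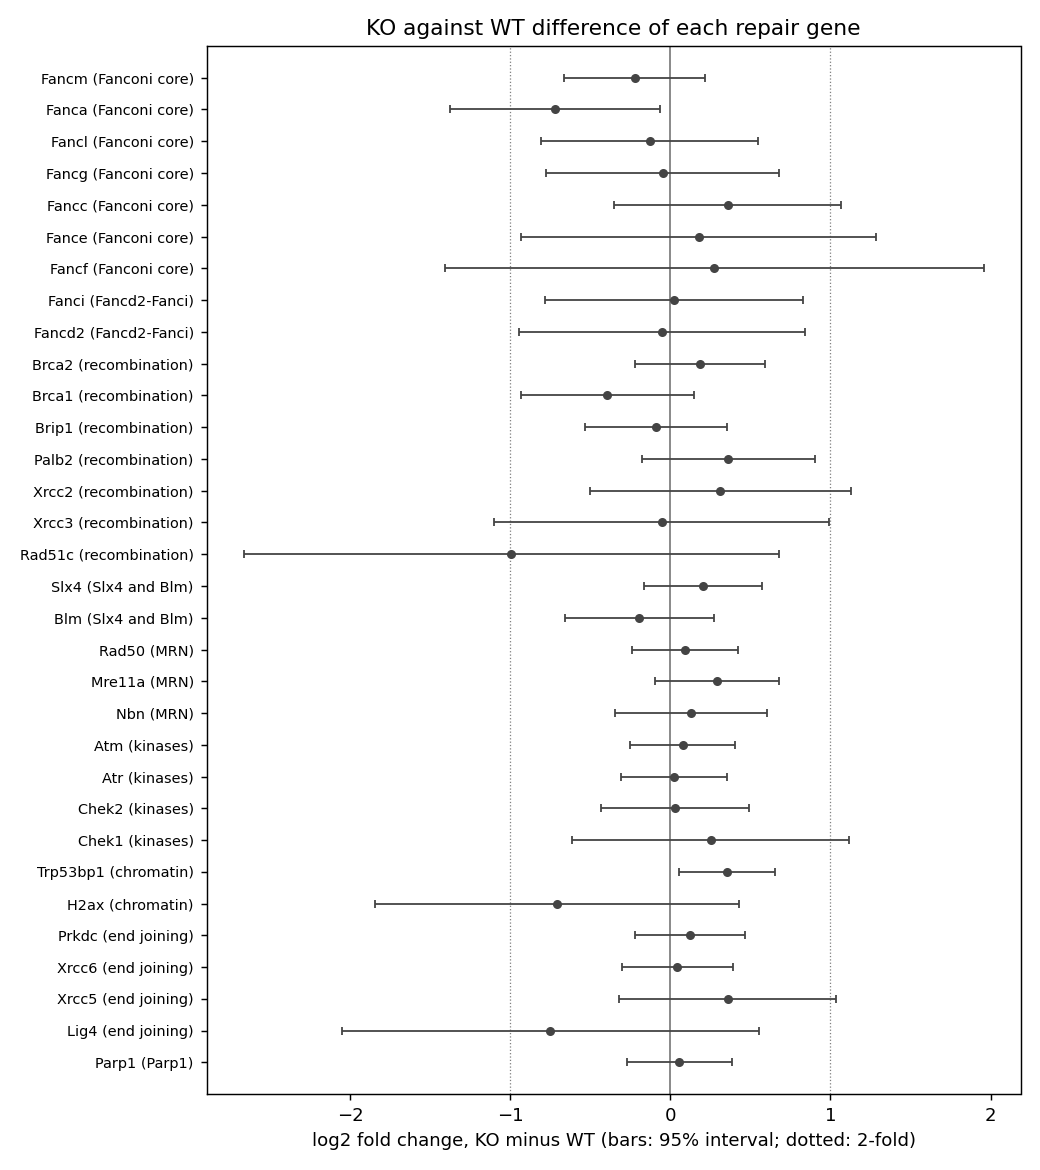
Log2 fold change (KO minus WT) of each member with its 95% interval from edgeR, grouped by role, with dotted lines at a 2-fold change either way. Intervals of Fanca (-1.38 to -0.06) and Trp53bp1 (0.05 to 0.66) leave out 0, and the widest belong to low genes such as Fancf and Rad51c.

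**Figure D3:**
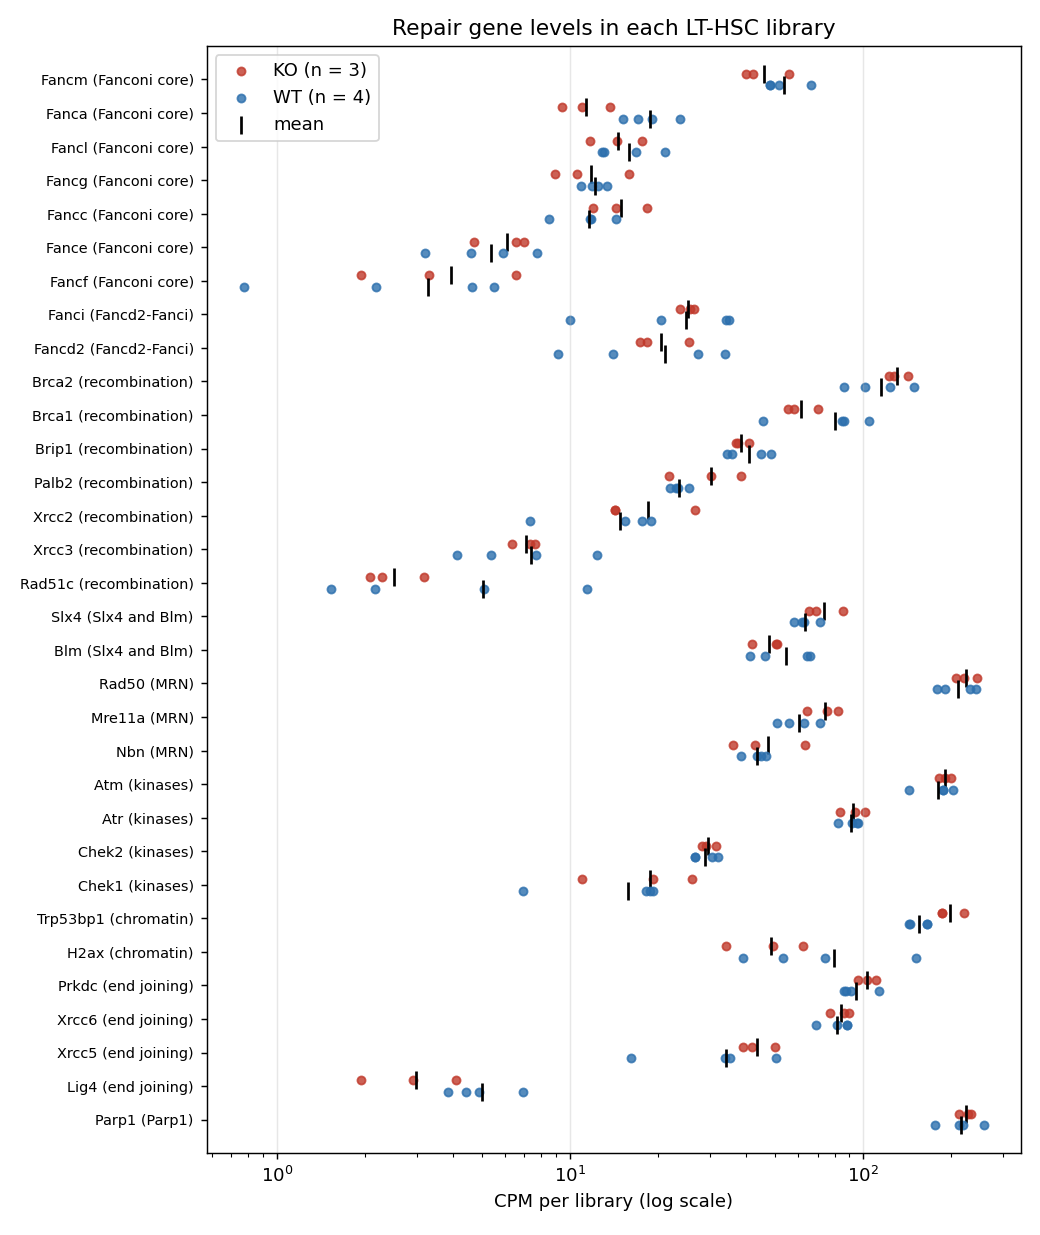
CPM of the 32 members in each library on a log axis, with KO mice drawn above WT mice for each gene and a bar at each group's mean. The groups overlap in all members except Fanca, where KO lies below WT, and Trp53bp1, where KO lies above WT.

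Fanca, a core subunit that works in a subcomplex with FANCG, was the member whose KO values lay wholly below WT. It had 13.7, 11.04 and 9.42 CPM in KO mice ko_306, ko_314 and ko_320, against 23.8, 19.1, 17.1 and 15.2 CPM in WT mice wt_284, wt_290, wt_310 and wt_312. The nearest values were ko_306 and wt_312, and wt_284 was the highest. The log2 fold change was -0.72 (SE 0.30, 95% interval -1.38 to -0.06), with an unadjusted p of 0.0345 and an adjusted p of 0.992 by edgeR. Without wt_284 the log2 fold change was -0.58 and the unadjusted p 0.107 by edgeR. Without ko_320, ko_314 or wt_290 the unadjusted p by edgeR was 0.107, 0.0823 and 0.0694. Without ko_306, wt_310 or wt_312 it was 0.0318, 0.0422 and 0.0239. With all libraries and no low-count filter it was 0.0550. The Fanca gene (ENSMUSG00000032815.16, chr8:123268300-123318576, minus strand, GRCm38) shares 920 exon bases with Zfp276 on the other strand, and since the notes used here do not say whether counting used strand, reads there may be split between them. Zfp276 itself differed by 0.07 (SE 0.32).

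The other core members went either way. Fancc had 14.4, 18.3 and 12.0 CPM in KO mice ko_306, ko_314 and ko_320, against 14.4, 11.7, 11.8 and 8.48 CPM in WT mice wt_284, wt_290, wt_310 and wt_312. These groups overlapped, with wt_312 lowest, and the log2 fold change was 0.36 (SE 0.33, -0.35 to 1.07). Fance, which bridges the core to FANCD2, differed by 0.18, and Fancf, an adaptor subunit with few counts, by 0.27 with an interval of -1.41 to 1.96. Fancg, Fancl (the ubiquitin ligase subunit) and Fancm differed by -0.05, -0.13 and -0.22. Summed over the 7 core genes, the libraries held 103 to 119 CPM in KO and 115 to 127 CPM in WT.

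For the ID2 complex, the clamp that the core ubiquitylates, the WT mice spanned more than the KO mice. Fancd2 had 17.3, 18.3 and 25.6 CPM in KO mice ko_306, ko_314 and ko_320, against 33.8, 27.5, 14.1 and 9.12 CPM in WT mice wt_284, wt_290, wt_310 and wt_312. All 3 KO values lay inside the WT range, and the log2 fold change was -0.05 (SE 0.41, -0.94 to 0.84). Fanci had 23.8, 25.8 and 26.6 CPM in the same order of KO mice, against 35.0, 34.1, 20.5 and 10.02 CPM in WT mice. Again the KO values sat inside the WT range, with wt_284 and wt_290 high and wt_312 low, and the log2 fold change was 0.03 (SE 0.37, -0.78 to 0.83). Fanci shares 921 exon bases with Polg on the other strand, which differed by -0.11 (SE 0.28).

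Among homologous recombination genes, Brca1 had the smallest p of those lower in KO. It had 58.2, 55.3 and 70.4 CPM in KO mice ko_306, ko_314 and ko_320, against 105, 85.2, 86.0 and 45.5 CPM in WT mice wt_284, wt_290, wt_310 and wt_312. wt_312 fell below all KO mice while the other 3 WT mice lay above them. The log2 fold change was -0.39 (SE 0.25, -0.93 to 0.15; unadjusted p = 0.140 by edgeR). Without wt_312 it was -0.57, with an unadjusted p of 0.00663 and an adjusted p of 0.726. With any other library left out it was -0.48 to -0.23, with an unadjusted p of 0.129 to 0.327 by edgeR. With all libraries, limma-voom gave Brca1 a log2 fold change of -0.47, an unadjusted p of 0.0366 and an adjusted p of 0.981.

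Palb2, which tethers BRCA2 to BRCA1, was at the other end of the recombination group. It had 21.9, 30.4 and 38.5 CPM in KO mice ko_306, ko_314 and ko_320, against 23.4, 22.0, 25.5 and 23.1 CPM in WT mice wt_284, wt_290, wt_310 and wt_312. ko_314 and ko_320 lay above all WT mice and ko_306 below them, and the log2 fold change was 0.36 (SE 0.25, -0.18 to 0.90; unadjusted p = 0.171 by edgeR). Brca2 had 123 to 142 CPM in KO and 86.3 to 149 CPM in WT, a difference of 0.18, and Brip1, the helicase that binds BRCA1, differed by -0.09. The recombination genes Xrcc2, Xrcc3 and Rad51c differed by 0.31, -0.05 and -0.99. Rad51c, named after its values were seen, had 2.09 to 3.19 CPM in KO and 1.53 to 11.4 CPM in WT. Its difference was -0.19 without wt_312, which held the top value.

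The resolution genes were Slx4, the scaffold of the nucleases that unhook crosslinks and cut junctions, and Blm, the helicase that dissolves double Holliday junctions. Slx4 had 69.2, 85.6 and 65.3 CPM in KO mice ko_306, ko_314 and ko_320, against 63.2, 62.1, 58.1 and 71.1 CPM in WT mice wt_284, wt_290, wt_310 and wt_312. Only wt_312 reached into the KO range, and the log2 fold change was 0.21 (SE 0.17). Blm had 50.5, 41.8 and 50.8 CPM in KO mice ko_306, ko_314 and ko_320, against 66.1, 64.5, 41.3 and 46.2 CPM in WT mice wt_284, wt_290, wt_310 and wt_312. The groups overlapped, with wt_284 and wt_290 above all KO mice, and the log2 fold change was -0.19 (SE 0.21).

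In the MRN complex, which binds and trims broken ends and activates ATM, all 3 genes had a fold change above 0 and none passed the threshold. Mre11a, the nuclease, had 75.4, 82.0 and 64.4 CPM in KO mice ko_306, ko_314 and ko_320, against 56.1, 71.4, 63.1 and 51.1 CPM in WT mice wt_284, wt_290, wt_310 and wt_312. ko_306 and ko_314 lay above all WT mice, and the log2 fold change was 0.29 (SE 0.18; unadjusted p = 0.129 by edgeR). Rad50 had 221, 207 and 245 CPM in those KO mice, against 190, 232, 242 and 179 CPM in the WT mice. The groups overlapped, with ko_320 just above all WT mice and wt_284 and wt_312 below all KO mice, and the log2 fold change was 0.09 (SE 0.15). Nbn, which carries the complex to ATM, had 36.0, 42.8 and 63.7 CPM in KO mice ko_306, ko_314 and ko_320, against 46.5, 43.5, 38.5 and 44.9 CPM in WT mice wt_284, wt_290, wt_310 and wt_312. ko_320 was above the WT range and ko_306 below it, and the log2 fold change was 0.13 (SE 0.22).

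Of the kinases, Atm (182 to 199 CPM in KO and 144 to 204 CPM in WT), Atr (83.5 to 101 CPM in KO and 82.2 to 96.0 CPM in WT) and Chek2 (28.3 to 31.5 CPM in KO and 26.7 to 32.1 CPM in WT) differed by 0.08, 0.02 and 0.03. Chek2 had the smallest spread of all members, 1.20-fold between its highest and lowest library, and Atr the next at 1.23-fold. Chek1, the replication checkpoint kinase, was the kinase with the most spread. It had 19.3, 11.04 and 26.1 CPM in KO mice ko_306, ko_314 and ko_320, against 18.2, 19.3, 18.8 and 6.93 CPM in WT mice wt_284, wt_290, wt_310 and wt_312. ko_314 and wt_312 were low and ko_320 was the highest, and the log2 fold change was 0.25 (SE 0.40, -0.61 to 1.12).

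Trp53bp1, which shields ends from resection and so favours end joining, was the member whose KO values lay wholly above WT. It had 187, 221 and 187 CPM in KO mice ko_306, ko_314 and ko_320, against 144, 165, 145 and 166 CPM in WT mice wt_284, wt_290, wt_310 and wt_312. The log2 fold change was 0.35 (SE 0.14, 95% interval 0.05 to 0.66), with an unadjusted p of 0.0250 and an adjusted p of 0.992 by edgeR. ko_314 was the highest library, and without it the log2 fold change was 0.28 and the unadjusted p 0.109. Without wt_310 the unadjusted p by edgeR was 0.0622. The gene (ENSMUSG00000043909.16, chr2:121193281-121271407, minus strand, GRCm38) shares 2130 exon bases with Tubgcp4 on the other strand, which differed by -0.14 (SE 0.23).

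H2ax, the other chromatin member (ENSMUSG00000049932.3, chr9:44334694-44336077, plus strand, GRCm38), was highest in 1 WT library. It had 49.5, 34.0 and 62.5 CPM in KO mice ko_306, ko_314 and ko_320, against 152, 74.4, 53.2 and 38.9 CPM in WT mice wt_284, wt_290, wt_310 and wt_312. wt_284 stood at the top and wt_290 also lay above all KO mice, while wt_310 and wt_312 lay within the KO range. The log2 fold change was -0.71 (SE 0.48, -1.84 to 0.43; unadjusted p = 0.185 by edgeR), -0.19 without wt_284 and -0.91 without wt_312. wt_284 was also the library with the most myeloid and erythroid marker RNA (16249 and 5510 CPM), and the part of that in the H2ax value was not tested.

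No end-joining gene passed the threshold, and Lig4 was the one with a fold change below 0. Xrcc5, the larger Ku subunit, had 50.2, 38.9 and 41.8 CPM in KO mice ko_306, ko_314 and ko_320, against 33.9, 50.7, 35.3 and 16.2 CPM in WT mice wt_284, wt_290, wt_310 and wt_312. wt_312 was the lowest, wt_290 the highest, and the log2 fold change was 0.36 (SE 0.31). Lig4 had 2.93, 1.94 and 4.08 CPM in KO mice ko_306, ko_314 and ko_320, against 6.91, 4.44, 4.89 and 3.85 CPM in WT mice wt_284, wt_290, wt_310 and wt_312. ko_320 overlapped wt_312, and the log2 fold change was -0.75 (SE 0.60, -2.05 to 0.56; unadjusted p = 0.236 by edgeR), an interval that holds 0. Xrcc6, the other Ku subunit, and Prkdc, the catalytic subunit of DNA-PK, differed by 0.04 and 0.12. Parp1 had 228, 213 and 234 CPM in KO mice ko_306, ko_314 and ko_320, against 213, 258, 219 and 176 CPM in WT mice wt_284, wt_290, wt_310 and wt_312. The KO mice sat within the WT range, and the log2 fold change was 0.06 (SE 0.15).

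The members differed in their spread over the 7 libraries. The highest library exceeded the lowest by under 1.5-fold in 9 members, by 2-fold or more in 14 and by 3-fold or more in 10, with 8.49-fold for Fancf and 7.48-fold for Rad51c, both of low counts. wt_312 was the lowest library in 12 members, more than any other, and wt_284 was the highest in 7 and the lowest in 6. Of the members with a mean of at least 10 CPM, H2ax, Chek1, Fancd2, Xrcc2, Fanci and Xrcc5 spanned 3-fold or more.

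Cell cycle genes varied between mice of 1 genotype. A list of 40 S phase genes averaged 5.69, 5.55 and 5.94 log2 CPM in KO mice ko_306, ko_314 and ko_320, against 6.10, 5.99, 5.67 and 5.38 log2 CPM in WT mice wt_284, wt_290, wt_310 and wt_312. A list of 40 G2 and mitosis genes averaged 5.53, 5.18 and 5.82 log2 CPM in those KO mice, against 6.40, 5.85, 5.53 and 5.19 log2 CPM in the WT mice. The mean of Fancd2 and Fanci was 4.36, 4.46 and 4.72 log2 CPM in KO mice and 5.12, 4.95, 4.11 and 3.29 log2 CPM in WT mice. In WT all 3 averages were highest in wt_284, next in wt_290, then in wt_310, and lowest in wt_312. In KO all 3 were highest in ko_320, but ko_314 was lowest for both lists and ko_306 for Fancd2 and Fanci. None of these genes was called by edgeR, by DESeq2 or by limma-voom. By edgeR an unadjusted p under 0.05 was reached by 2 S phase and 0 G2 and mitosis genes, against 3.27% of all genes. By sign, 15 of the S phase genes were above 0 and 25 below, and 4 of the G2 and mitosis genes above 0 and 36 below. The part of cell cycle genes in the member values was not tested.

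**Figure D4:**
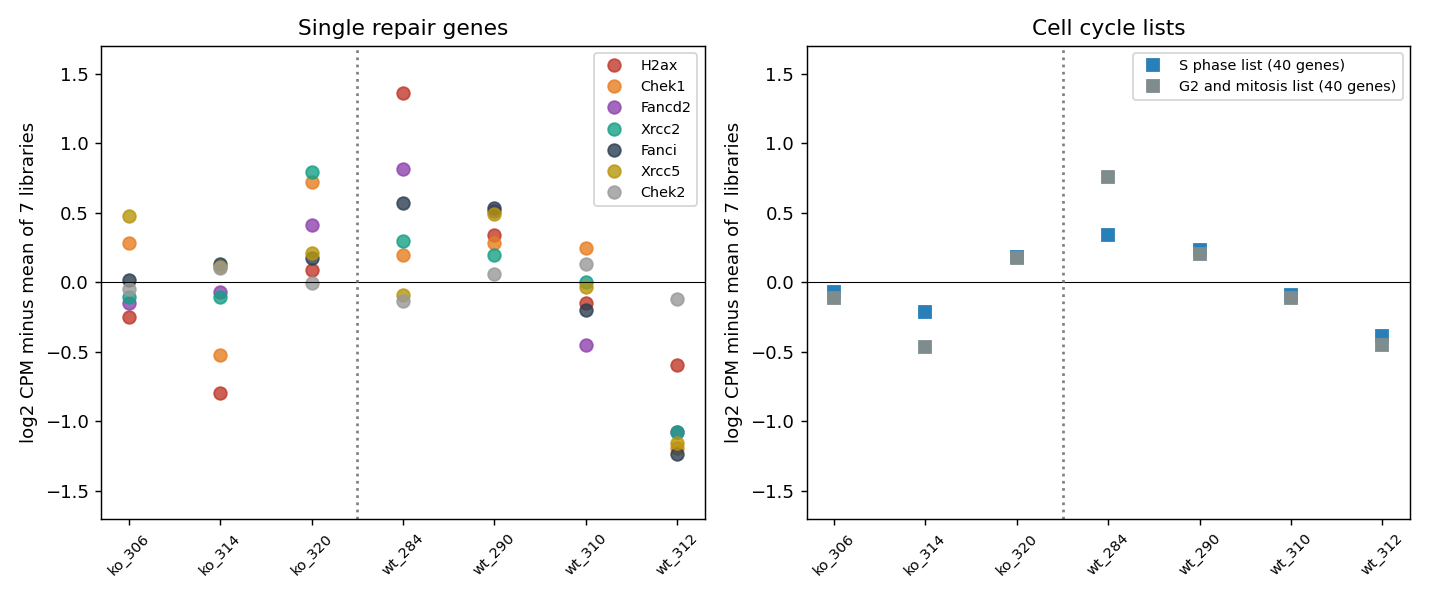
Deviation from the mean of the 7 libraries (log2 CPM) for each mouse, KO mice left of WT mice: on the left the 6 members with at least 10 CPM and a 3-fold span, plus Chek2, which spanned 1.20-fold, and on the right the S phase and the G2 and mitosis lists of 40 genes each. wt_284 is high and wt_312 low for Fancd2, Fanci, H2ax and both lists.

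By promoter letters, the median log2 fold change was 0.04 in the 4 members with E2F letters and 0.04 in the 22 without, and 0.05 in the 14 with a CCAAT box against 0.03 in the 12 without. It was -0.19 in the 2 members with ETS letters against 0.04 in the 24 without, and Lig4, the 1 member with NRF1 letters, stood at -0.75 against a median of 0.04 in the other 25. Several members lie head to head with a neighbour: 9 of 32 members (28.1%) had a divergent partner whose start lay within 1000 bases, against 1590 of 22028 protein-coding genes (7.22%), a description without a test. The pairs were Fancd2 with Emc3 (30 bases between starts), Brca1 with Nbr1 (194), Palb2 with Dctn5 (56), Rad51c with Tex14 (111), Xrcc3 with Zfyve21 (297), Atm with Npat (307), Chek2 with Hscb (202), Prkdc with Mcm4 (466) and Lig4 with Abhd13 (21). Of the 8 partners tested, none was called by edgeR, and the smallest unadjusted p was 0.397 (Nbr1). Nbr1 differed by -0.13 where Brca1 differed by -0.39, Dctn5 by -0.15 where Palb2 differed by 0.36, and Mcm4, a subunit of the replicative helicase, by -0.12 where Prkdc differed by 0.12.

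No other gene listed for these pathways passed the threshold. Of 96 other Fanconi, recombination, end-joining and checkpoint genes, all 96 were tested and 0 had an adjusted p under 0.05 by edgeR, by DESeq2 or by limma-voom. By edgeR 48 were above 0 and 48 below, with a median of 0.00, and 5 had an unadjusted p under 0.05 (against 3.27% of all genes). DESeq2 gave such a p to 8 of the 96 and to 679 of all 15372 genes, and limma-voom to 3 and 469. Rad51b, a recombination gene, had the smallest p of the higher ones, with 9.56, 14.6 and 15.9 CPM in KO mice ko_306, ko_314 and ko_320, against 6.30, 7.74, 8.25 and 5.27 CPM in WT mice wt_284, wt_290, wt_310 and wt_312. Its KO values lay above all WT values (log2 fold change 0.95, SE 0.37, unadjusted p = 0.0252 by edgeR). Sfr1, Rnf8 (a ubiquitin ligase of break-marked chromatin) and Dclre1a (a crosslink nuclease) followed, with log2 fold changes of 0.44, 0.46 and 0.49, and the KO values of Dclre1a lay above all WT values. On the other side, Aplf, an end-joining scaffold, had 18.5, 17.0005 and 21.9 CPM in KO mice ko_306, ko_314 and ko_320, against 27.9, 24.1, 29.2 and 32.4 CPM in WT mice wt_284, wt_290, wt_310 and wt_312. Its KO values lay below all WT values (log2 fold change -0.57, SE 0.24, unadjusted p = 0.0363 by edgeR). Cdc25c and Cdc25b, phosphatases that drive entry into mitosis, differed by -1.20 and -1.11, and Shld3, a shieldin subunit, by -1.71. Among the 96 genes, KO values lay wholly above WT in 3 and wholly below in 3, against 2.43% of all genes in each direction.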

How the data were processed

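The deposited table holds the authors' estimated counts per gene, as whole numbers, for 7 libraries (3 KO, 4 WT); per the submitters' processing notes reads went through cutadapt and Salmon, with no version, annotation or use of strand stated there. Libraries were made with a stranded total RNA kit for low input, per the labels' protocols, although the molecule label reads polyA RNA. Rows with no symbol (22461) kept their identifiers and stayed in the tests. Counts were scaled by TMM and tested with edgeR 4.0.16 in R 4.3.3 (robust quasi-likelihood fit, filterByExpr, all 7 libraries, genotype as the 1 factor). Benjamini-Hochberg adjustment ran over 15372 genes, with a threshold of 0.05. Averages of gene lists in log2 CPM used a prior count of 2. DESeq2 1.42.0, limma-voom (limma 3.58.1), other scalings and filters and leaving out each library were alternatives. The limma-voom fit used quality weights, which count the libraries unequally. The procedure was tested on simulated data, where most 2-fold changes were not recovered, so a member without a call may still differ. TPM came from union exon lengths of GENCODE M21 (GRCm38), which carries 99.5% of the gene identifiers (98.1% in the same version), and serves levels between genes only. Promoters are RefSeq, GRCm38.p6. No value column was left unused (0).

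The members and all gene lists were chosen with earlier results of these data known. Values in every library are given for the highest and lowest member per length, for the smallest p in each direction in each role, for all members of roles of 1 to 3 genes, and for members whose groups do not overlap; of other pathway genes, any called and up to 4 in each direction are named. The mice are separate animals. Total counts per library were 6444134 to 11101774.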

Additional observations from a re-analysis of the deposited data

Results flagged for a closer look

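Chek1 in wt_312 lay apart from the other WT mice. It had 6.93 CPM, against 18.2 to 19.3 CPM in wt_284, wt_290 and wt_310, and the gap, 0.912 of the range of the WT group, exceeded Dixon's 95% critical value for 4 samples. Such a gap was looked for in the WT values of all 32 members, and chance gives it in about 1 in 20 groups.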

How the results depend on the processing

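No paired analysis was run. The mice are littermates, but the labels give no pairing, day or batch that links a KO to a WT library. No member was called (adjusted p under 0.05) in any of the 14 alternatives run, and the median of the members was 0.00 to 0.11. Genes called numbered 1 by edgeR, 10 by DESeq2, 81 with no low-count filter, 0 by limma-voom (469 with an unadjusted p under 0.05) and 1 to 3 with 1 library left out (3 without ko_306 and without wt_284, 2 without ko_314 and without wt_290). Of 448 member values under the alternatives, 31 had the opposite sign, 25 of them with 1 library left out, in 17 members. The cause was not tested. Fancd2 was 0.0095 with upper-quartile scaling. With limma-voom and its quality weights for libraries, Fanci was -0.14, Rad51c 0.011, Rad50 -0.0029, Chek2 -0.024 and Parp1 -0.054. With 1 library left out, the log2 fold change was -0.34 to 0.63 for Fancf, -0.31 to 0.11 for Fancg, -0.27 to 0.030 for Fancl, -0.0043 to 0.40 for Fance, -0.28 to 0.27 for Fancd2, -0.22 to 0.24 for Fanci, -0.033 to 0.48 for Xrcc2, -0.25 to 0.30 for Xrcc3, -0.12 to 0.28 for Nbn, -0.015 to 0.15 for Atm, -0.063 to 0.11 for Atr, -0.035 to 0.54 for Chek1, -0.0050 to 0.080 for Chek2, -0.026 to 0.12 for Xrcc6 and -0.016 to 0.14 for Parp1. The sign of Fanca (-0.89 to -0.58) and of Trp53bp1 (0.28 to 0.41) held with each library left out. Lig4, the member with the lowest mean per length over all 7 libraries, had 13 to 57 counts in a library. Without wt_312 the lowest mean was that of Rad51c.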
